A study of Vitis vinifera with 2 samples.

Results

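Chromosome 16 of grapevine carried 4161 small interfering RNA (siRNA) clusters in leaf and 11351 in embryogenic callus (EC). Members were all clusters listed on chromosome 16 itself, which made up 15512 of the 317444 clusters of both lists. They were 4.64% of the 89597 leaf clusters and 4.98% of the 227847 EC clusters, and none was removed by a filter. A further 28 leaf and 183 EC clusters lay on sequence assigned to the chromosome but not placed along it, and these were left out. A cluster is a stretch of genome covered by mapped small RNA reads, and its DicerCall is the fragment size that predominates in it, or N where no size was called. Positions are those of the PN40024 12X assembly.

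Both tissues came from Vitis vinifera cv. Chardonnay with no treatment, transgene or mutation named. Leaf samples were young leaves taken from vineyard vines, several to a pool. EC was proliferating callus raised from anthers and kept in the dark on callus medium, sampled some months after it formed, with several dishes to a pool. Each tissue had 1 library, made from 50 mg of tissue and from RNA of 18 to 35 nt, so differences between tissues had no replicate check and no test was made. Leaf and EC also differed in organ of origin, light and growth condition, which cannot be told apart here. The files held no gene expression, so neither tissue could be checked against markers.

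In plants the 24 nt heterochromatic siRNAs (het-siRNAs) are cut by DCL3 from double-stranded RNA that RNA polymerase IV and RDR2 make, and they guide DNA methylation to transposons and other repeats. The 21 and 22 nt siRNAs are cut mainly by DCL4 and DCL2, often from RNA copied by RDR6, and act mostly on transcripts. Clusters of 24 nt are commonly dense where repeats are dense. No annotation of genes or repeats of this build was used, so what lies under the clusters is not described.

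Chromosome 16 and the borders at 3, 11 and 17 Mb were chosen by the EC/leaf ratio of cluster numbers in 1 Mb windows, which changed strongly along its length. The ratios within these borders therefore describe the chromosome and test nothing. From 3 to 11 Mb, 989 leaf and 5458 EC clusters were listed, a ratio of 5.52 (95% interval 5.16 to 5.91). From 17 Mb to the end at 22053296 bp, 1199 leaf and 1376 EC clusters gave a ratio of 1.15 (1.06 to 1.24). The first 3 Mb and the stretch from 11 to 17 Mb lay between these, at 2.28 and 2.29, and the whole chromosome at 2.73 (2.63 to 2.83). The intervals cover the counting of clusters only.

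The change came from both tissues, in opposite directions. Leaf had 124 clusters per Mb at 3 to 11 Mb and 237 from 17 Mb on, while EC had 682 and 272. Thus 48.1% of the EC clusters of the chromosome but 23.8% of the leaf clusters lay at 3 to 11 Mb. From 17 Mb on the shares were 12.1% in EC and 28.8% in leaf. Clusters covered 0.963% of the sequence at 3 to 11 Mb in leaf and 8.06% in EC, against 2.18% and 2.75% from 17 Mb on. Counted as covered length the EC/leaf ratio was 8.38 at 3 to 11 Mb and 1.26 from 17 Mb on.

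The 8 windows from 3 to 11 Mb held between 59 and 203 leaf clusters, with a median of 122.5, and between 547 and 805 EC clusters, with a median of 680.5. The 5 complete windows from 17 Mb held between 178 and 281 leaf clusters and between 208 and 332 EC clusters. The EC counts of these regions did not overlap, whereas the leaf counts did, at 203 and 178. The highest EC/leaf ratios were 9.36 at 4 to 5 Mb, where leaf had 59 clusters and EC 552, 8.60 at 9 to 10 Mb with 92 and 791, and 8.22 at 7 to 8 Mb with 82 and 674. The lowest were 0.917 at 21 to 22 Mb with 254 and 233, 1.04 at 19 to 20 Mb with 200 and 208, and 1.12 at 18 to 19 Mb with 277 and 310. Windows just inside and outside the borders had ratios of 2.19 at 2 to 3 Mb and 4.18 at 3 to 4 Mb, of 4.97 at 10 to 11 Mb and 3.67 at 11 to 12 Mb, and of 1.74 at 16 to 17 Mb and 1.18 at 17 to 18 Mb. The step at 3 Mb was no larger than steps inside the stretch, where the ratio went from 4.18 to 9.36 at 4 to 5 Mb and 3.97 at 5 to 6 Mb. Past 11 Mb the ratio declined over several windows.

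**Figure D1:**
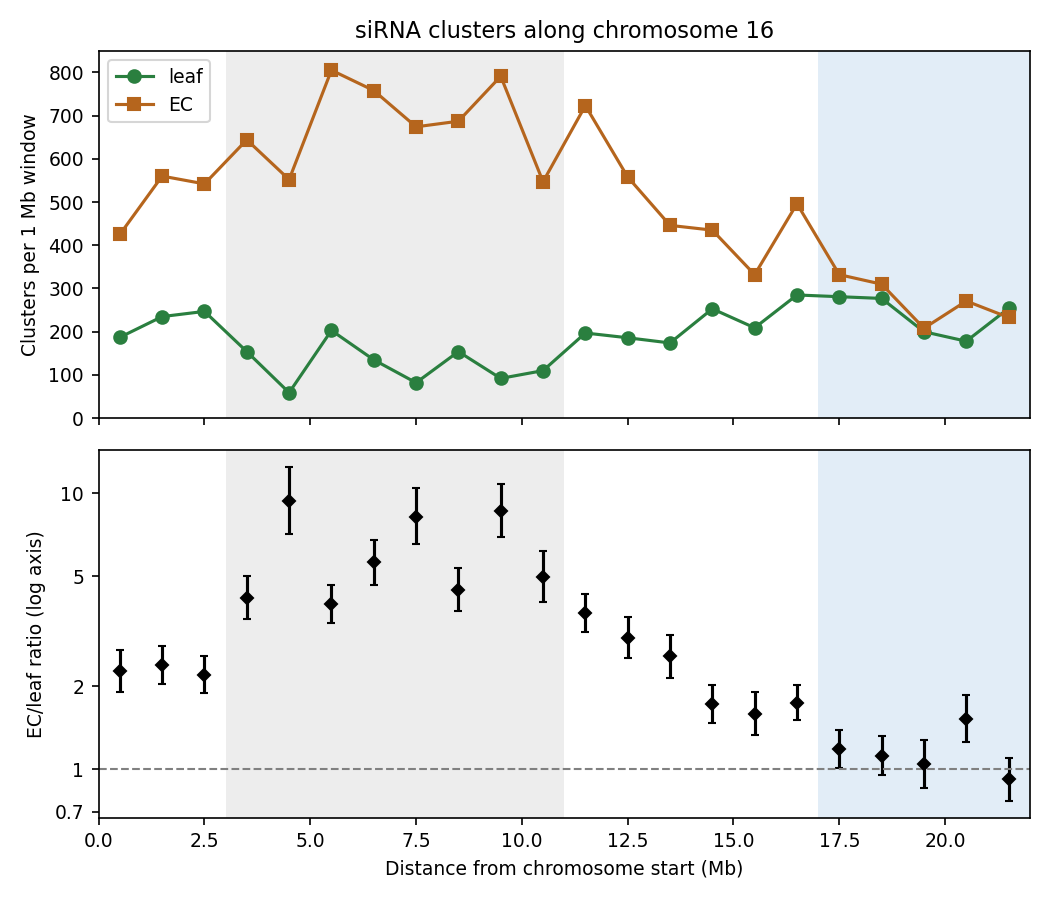
Clusters of all classes in each of the 22 complete 1 Mb windows of chromosome 16 in leaf and EC (top), and the EC/leaf ratio with its 95% counting interval on a log axis (bottom), against distance from the chromosome start in Mb. Grey marks 3 to 11 Mb, where EC counts lay between 547 and 805 and leaf counts between 59 and 203, and blue marks the end from 17 Mb, where the ratio lay between 0.917 and 1.52.

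Of the 22 complete windows, 4 (18.2%) had a ratio over 5, all of them at 3 to 11 Mb, against 13.3% of the 420 windows of chromosomes 1 to 19. One window, at 21 to 22 Mb, had more leaf than EC clusters, against 1.90% of all windows. Since the borders were set on these ratios, nothing is read from these shares. Across the 22 windows leaf and EC counts ran in opposite directions, with Pearson's r of -0.51 and Spearman's rho of -0.52. For 24 nt clusters r was -0.52 and for 21 nt clusters -0.12. These values describe neighbouring windows of 1 chromosome, which share base composition, mappability and library, and they carry no test.

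The 24 nt het-siRNA clusters made up most of both lists and followed the same course. Leaf had 2594 and EC 8886 over the whole chromosome, which is a ratio of 3.43 (3.28 to 3.58). At 3 to 11 Mb there were 597 and 4328, a ratio of 7.25 (6.65 to 7.91), and from 17 Mb on 739 and 1043, a ratio of 1.41 (1.28 to 1.55). No complete window had fewer 24 nt clusters in EC than in leaf, with 30 to 193 per window in leaf and 157 to 643 in EC. The same held for all 420 windows of chromosomes 1 to 19, so it is not particular to chromosome 16.

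Over the chromosome 164 leaf clusters and 171 EC clusters were 21 nt, giving a ratio of 1.04 (0.837 to 1.30), so the total differed by less than counting error. At 3 to 11 Mb leaf had 41 and EC 75, a ratio of 1.83 (1.23 to 2.75). From 17 Mb on leaf had 50 and EC 15, a ratio of 0.30 (0.156 to 0.543). Counted as covered length these ratios were 1.48 at 3 to 11 Mb and 0.134 from 17 Mb on, where 21 nt clusters covered 4.27 kb in leaf and 0.572 kb in EC. The near equality of the totals thus covered a surplus in EC in the inner stretch and a deficit at the end. In the windows from 17 Mb on, leaf had 9, 6, 8, 15 and 12 clusters of 21 nt and EC had 4, 3, 3, 4 and 1. Leaf counts lay above EC counts in all 5 of these windows and the groups did not overlap. EC had fewer 21 nt clusters than leaf in 10 of the 22 windows (45.5%), more in 10 and as many in 2, whereas 57.4% of all 420 windows had fewer in EC. At 3 to 11 Mb EC had fewer in 1 window of 8, more in 6 and as many in 1. Window totals chose the borders, and 21 nt clusters are a small part of those totals. Across the 22 windows, however, 21 nt counts rose with 24 nt counts, with Pearson's r of 0.65 in EC and 0.37 in leaf. The 21 nt contrast between the regions is therefore not independent of how the borders were chosen.

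**Figure D2:**
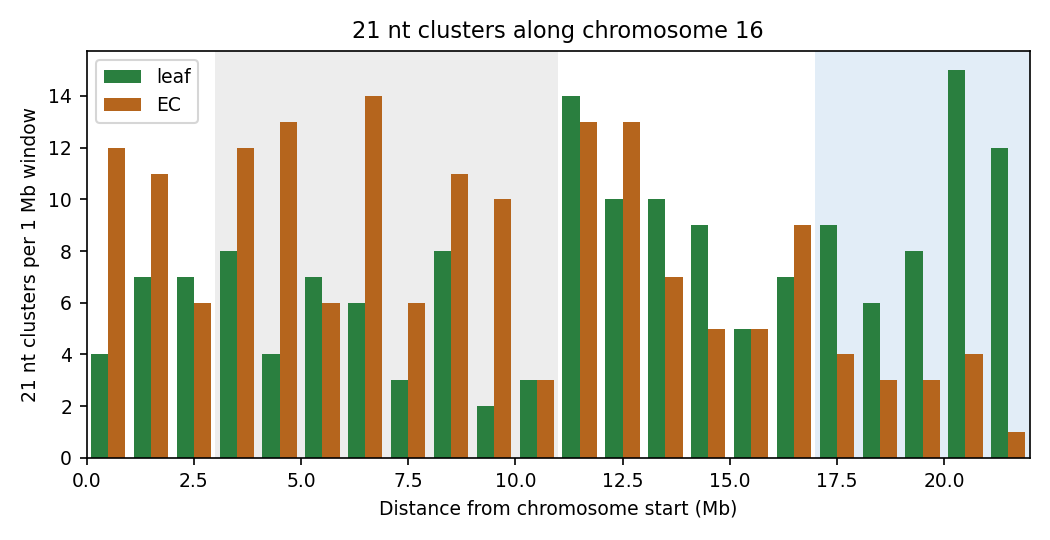
Number of 21 nt clusters per 1 Mb window of chromosome 16 in leaf and EC, as paired bars against distance from the chromosome start in Mb, with 3 to 11 Mb in grey and the end from 17 Mb in blue. From 17 Mb on leaf had 6 to 15 per window and EC 1 to 4, while EC had more in 6 of the 8 windows at 3 to 11 Mb.

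Within each tissue the mix of size classes differed little between the regions. In leaf, 24 nt clusters were 60.4% (57.2 to 63.4) of clusters at 3 to 11 Mb and 61.6% (58.8 to 64.4) from 17 Mb on, and 21 nt clusters 4.15% and 4.17%. In EC, 24 nt clusters were 79.3% (78.2 to 80.4) and 75.8% (73.4 to 78.0), and 21 nt clusters 1.37% and 1.09%. Leaf had 14.6 clusters of 24 nt for each of 21 nt at 3 to 11 Mb and 14.8 from 17 Mb on, and EC had 57.7 and 69.5. The leaf intervals of the regions overlapped for both classes, and in EC those of the 24 nt share did not. Clusters of the N class gave a ratio of 2.99 (2.58 to 3.48) at 3 to 11 Mb and of 0.707 (0.591 to 0.844) from 17 Mb on, where leaf had 307 and EC 217. The ratios of the 20, 22 and 23 nt classes were 3.0, 3.27 and 2.97 at 3 to 11 Mb and 0.857, 1.14 and 0.956 from 17 Mb on. All 6 classes had a higher EC/leaf ratio in the inner stretch than at the end. They are the parts of the totals on which the borders were chosen, so nothing is read from this agreement.

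Against the other 18 chromosomes, chromosome 16 had the lowest share of 21 nt clusters. They were 3.94% (3.37 to 4.58) of its leaf clusters and 1.51% (1.29 to 1.75) of its EC clusters, the lowest share of the 19 chromosomes in either tissue. The others ranged from 5.07% to 11.2% in leaf and from 1.58% to 2.44% in EC. The EC interval included the shares of other chromosomes, such as chromosome 10 (1.58%) and chromosome 1 (1.64%). The leaf interval lay below the shares of all others, but the counting error of those shares was not considered. Leaf density was 7.44 clusters of 21 nt per Mb, against 9.10 to 22.2 on the others. EC density was 7.75 per Mb, which was not the lowest, since chromosome 7 had 6.85. Its 24 nt shares, 62.3% in leaf and 78.3% in EC, were the highest of the 19, though by small margins over chromosome 10 in leaf (62.1%) and chromosome 1 in EC (78.2%). The EC/leaf ratio of all clusters ranked 5 of 19, in a range from 1.69 on chromosome 6 to 3.52 on chromosome 10. For 21 nt clusters chromosome 16 (1.04) came just after chromosome 10 (1.05), and the lowest was 0.531 on chromosome 13.

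**Figure D3:**
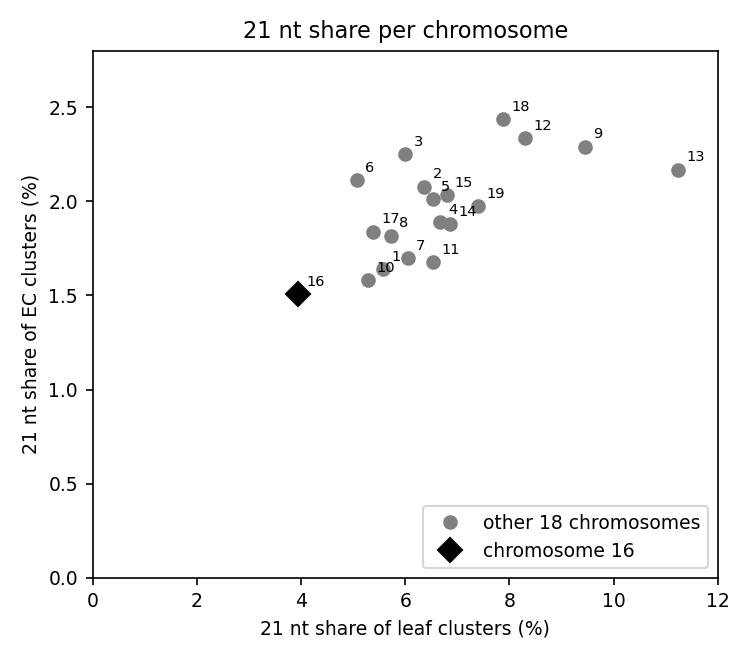
Share of 21 nt clusters among EC clusters against the share among leaf clusters, in percent, with 1 point per chromosome labelled by its number. Chromosome 16, the black diamond at 3.94% in leaf and 1.51% in EC, had the lowest share in both tissues, in EC by a small margin over chromosome 10 (1.58%).

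The position of the inner stretch was compared with runs of the same length elsewhere. The 8 Mb run of highest EC/leaf ratio on chromosome 16 was 3 to 11 Mb itself, and its ratio of 5.52 was second to 6.52 on chromosome 19. The 5 Mb run of lowest ratio was 17 to 22 Mb, at 1.14. The quotient of these extremes was 4.85, with a range of 2.28 to 4.85 on the other chromosomes, where chromosome 2 had almost the same value. The last 5 Mb of chromosome 16 had the lowest ratio of any chromosome's last 5 Mb, 1.16 against 1.21 to 5.44. Its first 5 Mb had the second highest of the first 5 Mb, 3.09 after 3.19 on chromosome 15. A low ratio at an end was not particular to chromosome 16, since the first 5 Mb had 1.08 on chromosome 2 and 1.17 on chromosome 6. The run lengths of 8 and 5 Mb match the regions chosen on chromosome 16, so its rank in these runs and their quotient was favoured in advance. Ranks over 19 chromosomes of 1 library pair carry no test.

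EC clusters were longer than leaf clusters, and more so in the inner stretch. Median length was 66 bp in leaf (quartiles 30 and 112) and 88 bp in EC (43 and 140). For 24 nt clusters the medians were 63 bp in leaf and 100 bp in EC at 3 to 11 Mb, against 80 and 87 bp from 17 Mb on. Leaf 24 nt clusters were thus shorter in the inner stretch and EC ones longer. Clusters of 200 bp or more were 4.15% (2.99 to 5.58) of leaf and 13.9% (13.0 to 14.9) of EC clusters at 3 to 11 Mb, against 8.84% (7.29 to 10.6) and 10.3% (8.76 to 12.05) from 17 Mb on. The 15 EC clusters of 21 nt from 17 Mb on had a median of 27 bp, and 9 of them were 30 bp or shorter, about the length of a single read. The 50 leaf clusters of 21 nt there had a median of 76 bp.

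**Figure D4:**
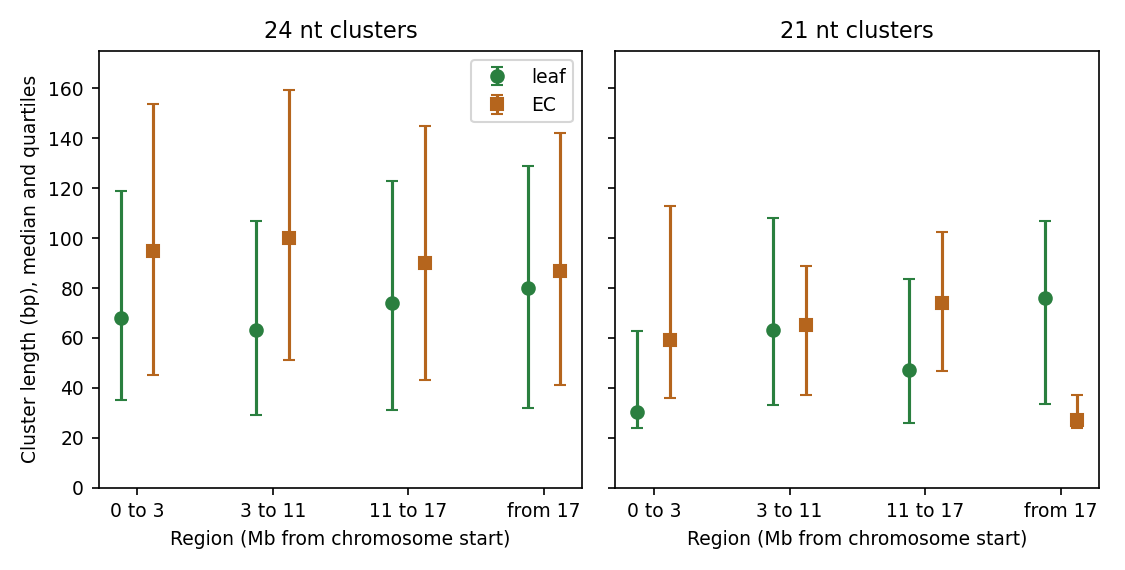
Median cluster length in bp, with bars from the lower to the upper quartile, for 24 nt (left) and 21 nt clusters (right) of leaf and EC in 4 regions of chromosome 16. The 24 nt medians were 63 bp in leaf and 100 bp in EC at 3 to 11 Mb, and the EC 21 nt clusters from 17 Mb on had a median of 27 bp.

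The longest EC clusters were 24 nt clusters of the inner stretch and, like most EC clusters there, had no leaf cluster over them. The 3 longest lay at chr16:7406187-7408519 (2333 bp), chr16:3958957-3961098 (2142 bp) and chr16:5468128-5470043 (1916 bp). None carried a strand call, meaning that reads came from both strands, and none was overlapped by a leaf cluster. Of the 14 EC clusters of 1000 bp or more, 13 lay at 3 to 11 Mb and 1 at 11 to 17 Mb. Of the 116 of 500 bp or more, 114 were 24 nt and 2 were N, 104 had no strand call, and 67 lay at 3 to 11 Mb. That was 8.38 per Mb, against 2.37 per Mb from 17 Mb on, where there were 12. Leaf clusters overlapped 13 of the 67 (19.4%, 10.8 to 30.9) and 7 of the 12 (58.3%, 27.7 to 84.8). For EC clusters of any length these shares were 8.72% and 26.0%, so long EC clusters did not lack leaf clusters more often than others. The longest from 17 Mb on, chr16:19067301-19068012 (712 bp, 24 nt), had 2 leaf clusters of 24 nt over 56.9% of its length. The 3 longest N clusters of EC were chr16:2884078-2884827 (750 bp), chr16:10964423-10965067 (645 bp) and chr16:5187210-5187708 (499 bp).

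Leaf had few long clusters on chromosome 16. Only 12 reached 500 bp, the fewest of the 19 chromosomes (16 to 65 on the others), and 10 of them were 24 nt. The 3 longest 24 nt clusters of leaf were chr16:20694847-20695468 (622 bp), chr16:15725059-15725676 (618 bp) and chr16:16398865-16399465 (601 bp), all without a strand call and all outside the inner stretch. The longest there was chr16:8041888-8042413 (526 bp), overlapped by 3 EC clusters. On the other chromosomes the longest leaf cluster of 24 nt measured between 775 and 2623 bp. The longest N clusters of leaf were chr16:1137309-1137859 (551 bp), chr16:2123392-2123849 (458 bp) and chr16:2123944-2124365 (422 bp). The last pair lay on the plus strand within 100 bp of each other and had no EC cluster.

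The longest 21 nt clusters were short as well, in leaf shorter than on any other chromosome but not in EC. In leaf they were chr16:7576360-7576817 (458 bp, minus strand), chr16:11205371-11205760 (390 bp, minus strand) and chr16:11686551-11686859 (309 bp, no strand call), and the longest from 17 Mb on was chr16:20231912-20232201 (290 bp). On the other chromosomes the longest cluster of 21 nt measured 474 to 3200 bp in leaf and 336 to 1374 bp in EC. The longest of EC here were chr16:1789589-1790011 (423 bp), chr16:12490106-12490424 (319 bp) and chr16:9103358-9103665 (308 bp), all without a strand call. From 17 Mb on the longest in EC measured 105 bp (chr16:17286093-17286197). The EC cluster of 319 bp lay in a group of 5 EC clusters of 21 nt within 1.985 kb, at chr16:12489029-12491013. Among stretches of up to 100 kb, the one with most 21 nt clusters in leaf held 8 in the 99.7 kb from 20573362 to 20673109, where EC had 20 clusters of 24 nt and 0 of 21 nt. These groups were chosen after their values were seen. A count of 0 among the 30 EC clusters there is not evidence that 21 nt siRNAs were absent, since a weak source need not form a cluster.

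Spacing followed density. The median gap between neighbouring leaf clusters was 3333 bp at 3 to 11 Mb and 1599 bp from 17 Mb on, and between EC clusters 555 and 975 bp. Of 25 leaf gaps of at least 50 kb, 16 lay at 3 to 11 Mb and 2 from 17 Mb on. Of 7 such gaps in EC, 0 lay at 3 to 11 Mb and 5 from 17 Mb on. The longest stretches without a leaf cluster ran from 10262786 to 10400794 (138 kb), from 10400843 to 10530719 (130 kb), separated by a single short leaf cluster, and from 9689289 to 9790865 (102 kb). EC had 34, 37 and 35 clusters in them, of which 27, 24 and 30 were 24 nt and none was 21 nt. The longest stretch without an EC cluster ran from 15096623 to 15185222 (88.6 kb) and held 3 leaf clusters.

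When clusters no more than 500 bp apart were joined, EC formed 170 islands of 2 kb or more, a limit chosen after the data were seen, with 95 of them at 3 to 11 Mb and 11 from 17 Mb on. Leaf formed 8, with 0 at 3 to 11 Mb and 5 from 17 Mb on. The longest EC island, from 2038012 to 2050407, lay outside the inner stretch and joined 34 clusters over 12396 bp, 30 of them 24 nt, with 5 leaf clusters. The next, from 5462162 to 5473123, joined 13 clusters, all 24 nt, which covered 86.1% of its 10962 bp and included the third longest EC cluster. The longest leaf island, 3197 bp from 11983816 to 11987012, joined 14 clusters of which 10 were 24 nt and 2 were 21 nt.

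Of the leaf clusters 1611 (38.7%) were overlapped by an EC cluster by at least 1 bp, against 41.1% of leaf clusters of all sequences. Of the EC clusters 1624 (14.3%) were overlapped by a leaf cluster, against 16.1% of EC clusters of all sequences. Both shares were low among the 19 chromosomes, ranked 16 and 17 of 19 from the highest. At 3 to 11 Mb, 48.1% of leaf clusters (45.0 to 51.3) met an EC cluster and 8.72% of EC clusters (7.99 to 9.50) met a leaf cluster. From 17 Mb on the shares were 29.4% (26.8 to 32.0) and 26.0% (23.7 to 28.4). These shares move with how much sequence the other tissue covers. The length common to both tissues was 4.83 times what the product of their coverages gives at 3 to 11 Mb and 7.75 times from 17 Mb on. The highest value this quotient can reach falls as the larger coverage rises. EC, the larger, covered 8.06% at 3 to 11 Mb and 2.75% from 17 Mb on. Whether the tissues coincided more in either region is therefore not read from the quotient.

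**Figure D5:**
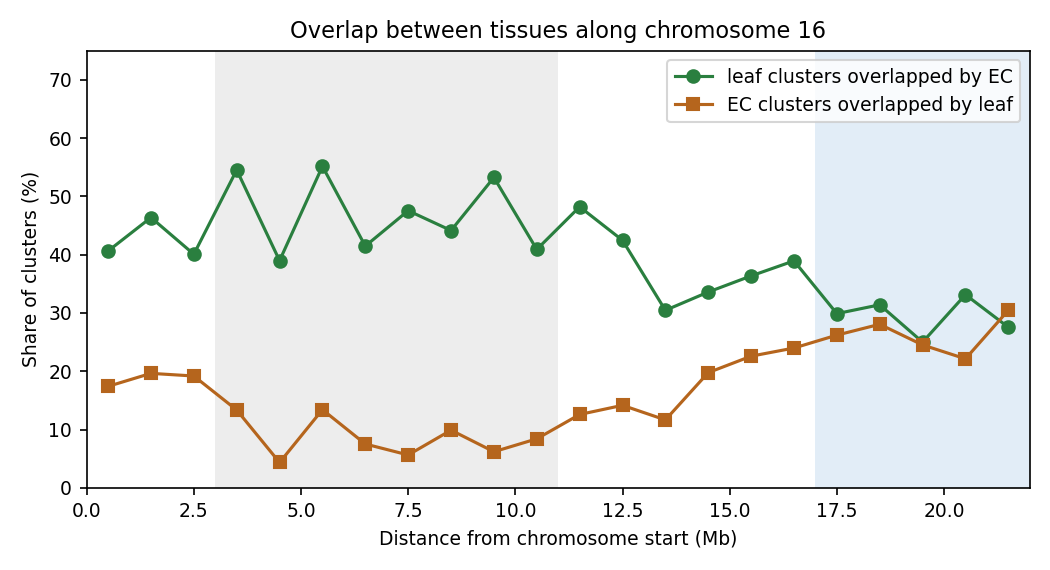
Share of leaf clusters overlapped by an EC cluster and of EC clusters overlapped by a leaf cluster, in percent by at least 1 bp, in each 1 Mb window of chromosome 16 against distance from the chromosome start in Mb. At 3 to 11 Mb (grey) the leaf share lay between 39.0% and 55.2% and the EC share between 4.35% and 13.4%, and from 17 Mb on (blue) between 25% and 33.1% and between 22.1% and 30.5%.

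A longer cluster meets a partner by 1 bp more readily, so overlap was also given by length. Of leaf 24 nt clusters, 39.8% of those of 31 to 99 bp, 50.2% of those of 100 to under 200 bp and 62.9% of those of 200 bp or more were overlapped. The share of their length in common with EC was nearly level, at 29.6%, 31.6% and 30.4%, and for EC 24 nt clusters of these lengths it was 8.57%, 7.96% and 7.56%. In the longest bin 25 of 28 (89.3%, 71.8 to 97.7) were overlapped at 3 to 11 Mb and 42 of 80 (52.5%, 41.0 to 63.8) from 17 Mb on. EC 24 nt clusters of 200 bp or more went the other way, with 15.5% (12.9 to 18.4) at 3 to 11 Mb and 39.6% (31.2 to 48.4) from 17 Mb on. Leaf 21 nt clusters were overlapped in 21 of 41 cases (51.2%) at 3 to 11 Mb and in 10 of 50 (20%) from 17 Mb on. For leaf clusters of all classes these shares were 48.1% and 29.4%. In each region the interval of the 21 nt share included the share of all classes. The lower 21 nt share from 17 Mb on is therefore not read as particular to 21 nt clusters.

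Where the tissues overlapped, the classes of the partners were set against the classes of all clusters of the other tissue. Each cluster was paired with the partner of longest overlap. Among 1101 overlapped 24 nt clusters of leaf, the EC partner was also 24 nt in 948 (86.1%, 83.9 to 88.1), against 78.3% of all EC clusters. Longer clusters are met more often, and 24 nt clusters made up 1069.67 of the 1270.47 kb covered in EC, a larger share than by count. The difference from 78.3% is therefore not read as agreement in class. For the 49 overlapped 21 nt clusters of leaf, the EC partner was 21 nt in 8 (16.3%, 7.32 to 29.7), 24 nt in 32 (65.3%, 50.4 to 78.3) and N in 7, while 1.51% of all EC clusters were 21 nt. For the 27 overlapped 21 nt clusters of EC, the leaf partner was 21 nt in 9 (33.3%, 16.5 to 54.0), against 3.94% of all leaf clusters, and 24 nt in another 9. Partners of 21 nt were thus more frequent than their share of the list in either direction, though most leaf clusters of 21 nt met another class. The longest common length among clusters of 21 nt in leaf and 24 nt in EC was 208 bp at chr16:17968056-17968263, followed by 181 bp within the longest leaf 21 nt cluster and 159 bp at chr16:9349681-9349850. In the opposite direction, 9 pairs were 24 nt in leaf and 21 nt in EC. The longest were 91 bp in the leaf cluster chr16:16106569-16107072, 70 bp in chr16:17303296-17303520 and 65 bp in chr16:16408934-16409107. Of the 8 pairs called 21 nt in both tissues, 4 lay at 3 to 11 Mb and 1 from 17 Mb on. The closest matches were chr16:3111376-3111669 in leaf, which shared 292 bp with an EC cluster beginning at the same base, and chr16:4321428-4321695, which shared 264 bp with an EC cluster that also began with it.

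Clusters without a strand call were 44.1% (42.5 to 45.6) in leaf and 53.7% (52.8 to 54.6) in EC, 42.1% and 55.3% at 3 to 11 Mb, and 45.0% and 50.0% from 17 Mb on. The share rose with length, from 12.4% of leaf and 14.5% of EC 24 nt clusters of 30 bp or less to 76.7% and 78.3% of those of 200 bp or more, and the intervals of the tissues overlapped in both of these bins. Between them, the intervals also overlapped at 31 to 99 bp, with 52.1% (49.0 to 55.3) in leaf and 50.6% (48.9 to 52.3) in EC. Only at 100 to under 200 bp did they not overlap, with 59.6% (56.0 to 63.2) in leaf and 67.4% (65.7 to 69.1) in EC. Of 876 stranded leaf clusters with an EC partner, 433 (49.4%) had a partner without a strand call. Of the other 443 pairs, with a strand call in both tissues, 397 (89.6%, 86.4 to 92.3) were on the same strand. Among such pairs the share was 88.7% at 3 to 11 Mb and 94.3% from 17 Mb on, with overlapping intervals. Neighbouring clusters within a tissue shared their strand in 53.4% of leaf and 53.8% of EC cases. Plus-strand clusters were 52.5% (50.4 to 54.5) of stranded leaf clusters and 51.9% (50.5 to 53.2) of stranded EC clusters.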

How the data were processed

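Small RNA from leaf and EC was sequenced with 1 library per tissue. In the study's methods, reads were trimmed and size filtered, reads of tRNA, rRNA and miRNA were removed, and the rest were mapped to the 12X genome and joined into clusters with ShortStack, which uses nearby unique reads to place multi-mapping ones. The coverage and padding settings were not given in the sources used. The deposited lists gave start, end, strand, DicerCall and a miRNA mark, and the score column was empty, so the reads behind a cluster were unknown. Read totals per library, which the study states, were not used. More deeply sequenced libraries yield more clusters, and no correction for depth was made.

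Clusters were assigned to regions and 1 Mb windows by their midpoint. Overlap needed 1 bp. Intervals of 95% were exact binomial (Clopper-Pearson), also for ratios of counts, and cover counting error only, while neighbouring clusters are not independent. The chromosome length was the largest cluster end. Computation used Python 3.11.15, pandas 2.3.3 and SciPy 1.17.1, and was tested on simulated data. Named were per tissue the 3 longest clusters with a DicerCall of 21, 24 or N, the longest of 21 and 24 nt per region, clusters with a miRNA mark, the 3 pairs of longest common length per combination of 21 and 24 nt, the 3 longest stretches without leaf clusters, and the 3 windows of highest and of lowest ratio. Members, borders and lists were chosen with earlier results of these data known. Gene groups planned from an annotation of the 12X build, and sequences of the clusters, were not used here.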

Additional observations from a re-analysis of the deposited data

Results flagged for a closer look

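Cluster density at 3 to 11 Mb was set against density from 17 Mb on within each tissue, and leaf and EC moved in opposite directions. For clusters of all classes the quotient was 0.521 in leaf and 2.51 in EC. For 21 nt clusters it was 0.518 in leaf and 3.16 in EC, and for 24 nt clusters 0.510 in leaf and 2.62 in EC. The borders were chosen on window ratios of these same libraries, each tissue had 1 library, and the difference was not tested.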

How the results depend on the processing

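Under 35 alternatives 28 values moved outside the interval of the main value and 7 stayed within it. No EC/leaf ratio crossed 1, which cannot apply to the overlap shares. Restricting the lists to clusters of at least 100 bp gave EC/leaf ratios of 3.69 for the chromosome, 4.41 for 24 nt clusters, 8.62 at 3 to 11 Mb and 1.29 from 17 Mb on. With clusters over 30 bp these were 3.10, 3.87, 6.52 and 1.25. With clusters within 500 bp merged they were 1.97, 2.54, 3.52 and 1.02, so counts of clusters depend on how finely neighbouring reads were split. As covered length they were 3.54, 4.41, 8.38 and 1.26. Leaving out clusters without a DicerCall gave 3.09 for the chromosome, 6.31 at 3 to 11 Mb and 1.30 from 17 Mb on. Borders 1 Mb further out gave 4.69 and 1.26. The ratio of 21 nt clusters over the whole chromosome moved within its interval under its 4 alternatives, which were not run by region. The share of leaf clusters overlapped was 27.6% when at least 50% of the cluster had to be covered, 32.5% with clusters of at least 100 bp, and 66.3% when an EC cluster within 500 bp sufficed. The share of EC clusters overlapped was 8.26%, 8.85% and 31.5% in these settings and 12.5% with clusters over 30 bp. No paired analysis was possible because leaf and EC each came from a lone library with no shared number. Reads per cluster were unknown, so weak clusters could not be weighed, and the part of library depth, multi-mapping and assembly gaps in these values was not tested.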

Other observations

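On chromosome 16 a miRNA mark was given to 1 leaf cluster and to no EC cluster, against 22 of 89597 leaf clusters and 15 of 227847 EC clusters of all sequences, so such marks were rare throughout. The leaf cluster, of 22 nt on the minus strand at chr16:17247183-17247302 (120 bp), had no EC cluster over it, and the nearest, a 24 nt cluster, lay 3827 bp away. A count of 0 of 11351 EC clusters allows a share of up to about 0.0264%, and miRNA reads had been removed before mapping. That limit is 3 counts over the number of clusters, not an exact interval as elsewhere.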
